A study of Homo sapiens with 4 samples.

Results

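The glutathione peroxidases are a family of 8 human genes, GPX1 to GPX8, whose products reduce hydrogen peroxide or organic hydroperoxides. Their expression was examined in SNU638 cells, a gastric cancer line in long-standing culture, after knockdown of ACTL6A, an actin-related subunit of chromatin remodelling complexes. All probe sets annotated with exactly 1 gene symbol from GPX1 to GPX8 were taken. This gave 11 probe sets of 7 genes, out of 54613 probe sets that are not array controls. GPX6, which is best known from olfactory tissue, had no such probe set, so its expression is not analysed here. GPX2, GPX3, GPX5 and GPX8 had 2 probe sets each, and GPX1, GPX4 and GPX7 had 1 each.

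The data are 4 single-colour arrays, 2 labelled scramble and 2 labelled sh-ACTL6A. According to the labels the scramble arrays carried scramble RNA and the others an shRNA against ACTL6A in the pLKO.1 vector. The protocol describes lentiviral infection and puromycin selection and names 2 working hairpins, shACTL6A-1 and shACTL6A-2. The labels do not say which hairpin an array carried, nor whether a group's arrays stem from independent cultures. The numbers in the array titles (such as sh-1 and sh-2) are used here as replicate numbers. Whether sh-1 and sh-2 stand for the hairpins is not stated. The p-values therefore reflect the spread among these 4 arrays alone, part of which may be technical or, in sh-ACTL6A, lie between hairpins. All values below are log2 signals as deposited, or differences between them (sh-ACTL6A minus scramble). Differences are given with the standard error (SE) of limma, a linear model with variances moderated across probe sets, and with p-values adjusted by the Benjamini-Hochberg method over all 54613 probe sets at a threshold of 0.05. RNA came from whole cultures, so fewer cells with a transcript and less transcript per cell cannot be told apart.

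Glutathione peroxidases take electrons from glutathione (GSH), which is oxidised and then regenerated by glutathione reductase with NADPH. GPX1 to GPX4 and GPX6 are selenoproteins in humans, with selenocysteine in the active site, whereas GPX5, GPX7 and GPX8 carry cysteine there. GPX4 reduces phospholipid hydroperoxides within membranes and is the central enzymatic restraint on ferroptosis, an iron-dependent death driven by lipid peroxidation. GPX2 is typical of the gastrointestinal epithelium.

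The targeted gene was checked first. ACTL6A (202666_s_at, the single probe set named for it) read 11.92 and 11.82 in scramble cells, against 10.16 and 10.32 in sh-ACTL6A cells. The groups were far apart relative to their spread, in the direction of the labels. The difference was -1.63 (SE 0.12, limma unadjusted p = 5.15e-06). Adjusted over all probe sets this was 0.281, so the targeted gene did not pass the threshold in this fit. With 1 probe set per gene, the brightest, and only where it was at or above the median signal, 12286 genes were tested. ACTL6A passed in that fit (limma adjusted p = 0.0408), as the only gene called. With the mean of all probe sets per gene, over 19775 genes, ACTL6A did not pass (limma adjusted p = 0.0647). Over all probe sets none passed the threshold (0 of 54613, 0%), while 2735 (5.01%) had an unadjusted p under 0.05. Of the 6 epithelial marker genes, 5 were above the reference level described below on all arrays (EPCAM, CDH1, KRT8, KRT18 and KRT19, but not CLDN4), and 0 of 12 gastric and intestinal markers were. None of 5 leukocyte markers and 1 of 7 stromal or endothelial markers (COL1A1) was above it. A gene was counted if at least 1 of its probe sets was above the level. By probe set, 5 of 9 epithelial and 1 of 26 stromal or endothelial ones were.

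The deposited table has no detection calls, so a level was read against probe sets of genes restricted to other tissues. A list of 40 such genes gave 63 probe sets of 33 genes, and their 95th percentile lay between 7.58 and 7.79 on the 4 arrays. This is an approximate line, since some listed genes, such as MBP, set its upper end. Of all probe sets, 29.7% exceeded it on 4 arrays. Of the family, 4 probe sets of 3 genes did, those of GPX1, GPX4 and GPX8. The other 7 probe sets, of GPX2, GPX3, GPX5 and GPX7, were below it on every array. Placing the line at each array's median signal instead also left 4 probe sets above it on all arrays. Signals of different probe sets are not on a common abundance scale, so these values do not order the genes by transcript number.

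**Figure D1:**
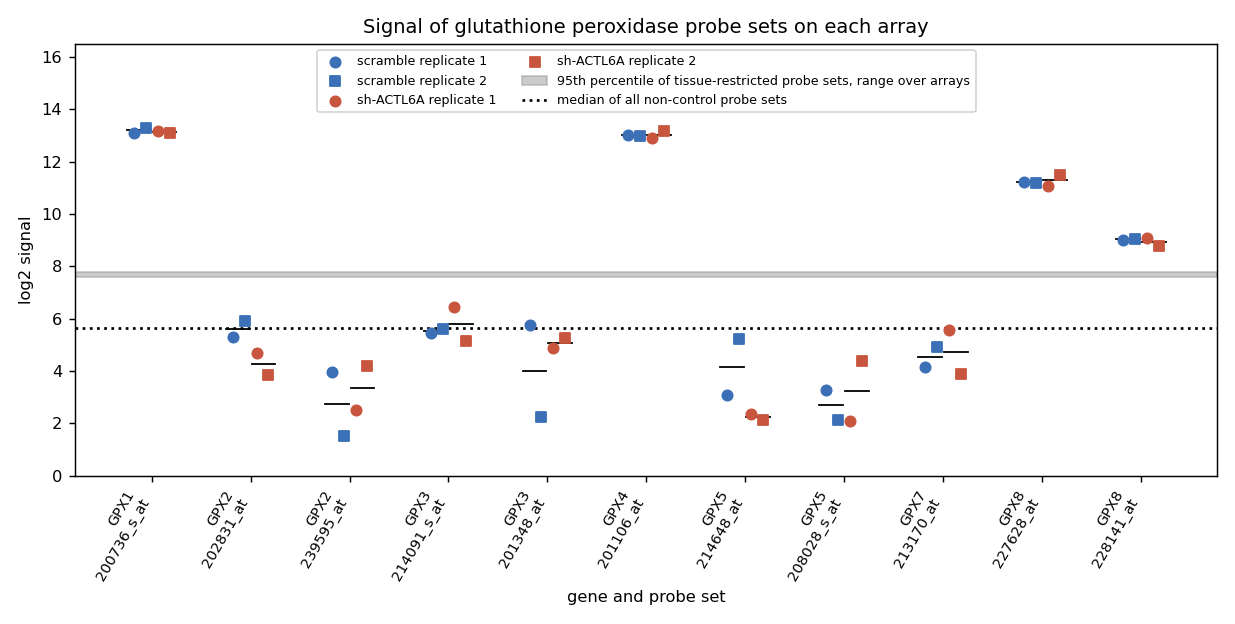
Log2 signal (vertical axis) of each of the 11 glutathione peroxidase probe sets (horizontal axis) on the 4 arrays, with short lines at the group means. The grey band spans the 95th percentile of tissue-restricted probe sets over the arrays (7.58 to 7.79) and the dotted line is the median of all non-control probe sets (5.63). Probe sets of GPX1, GPX4 and GPX8 lie above the band with arrays close together, and the other 7 lie below it with arrays scattered.

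Promoter sequence is shown for GPX2 and GPX4, a gut-type member below the reference and a membrane-protecting member above it. The 250 bases before the annotated start were read from RefSeq (GRCh38.p14), 5′ to 3′ on the strand of the gene. Capitals mark the antioxidant response element core in GPX2 (letters TGACNNNGC, which the CNC-bZIP factors such as NRF2 are known to bind, here on the opposite strand of the gene) and a GC box in GPX4 (letters GGGCGG, here read on the opposite strand).
GPX2, chr14:64942746-64942995, minus strand: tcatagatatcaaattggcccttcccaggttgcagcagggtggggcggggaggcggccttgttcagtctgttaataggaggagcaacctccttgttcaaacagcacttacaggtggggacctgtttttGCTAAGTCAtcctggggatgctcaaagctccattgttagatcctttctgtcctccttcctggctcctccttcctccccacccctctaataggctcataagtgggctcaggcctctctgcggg
GPX4, chr19:1103744-1103993, plus strand: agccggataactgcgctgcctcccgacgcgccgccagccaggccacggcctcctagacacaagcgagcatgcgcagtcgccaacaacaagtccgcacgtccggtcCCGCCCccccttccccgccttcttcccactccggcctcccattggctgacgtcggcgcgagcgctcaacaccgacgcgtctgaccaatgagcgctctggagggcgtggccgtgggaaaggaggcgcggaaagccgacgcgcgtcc

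Windows of 250 bases before to 50 after each start were searched on both strands, 12 windows for the 8 family genes and 35116 in all. Some of the 3 windows of GPX4 and of the 3 of GPX5 overlap, so 1 GC box is counted in each of the overlapping windows of GPX4. A total of 7 short motifs were tried, without a rule set for choosing them and with the expression values known, and all are given. The antioxidant response element core was in 13.3% of all windows and in 1 family window, that of GPX2, at positions -122 to -114 from the start. The GC box was in 45% of all windows and in 7 family windows, of GPX1, GPX2, GPX3, GPX4 and GPX7. An AP-1 site (TGANTCA, 7.71% of all windows) was in 0 family windows. GATTGG (15.1%), an inverted CCAAT box (ATTGG) preceded by G, was in those of GPX3 and GPX6. ATTGG without that G was not searched for, and it occurs in the sequences printed above for GPX2 and GPX4. The letters of a TATA box (TATAAA, 11.5%) were in 1 of GPX5, on the opposite strand at positions -122 to -117. An E-box (CACGTG, 7.26%) and an A-rich TATA-like run (TTAAAA, 17.6%) were both in the window of GPX1. The E-box was at positions -24 to -19, and the TTAAAA run lay across the start itself. In all, 6 of the 7 motifs matched at least 1 family window, so a single match for any of them is a description of letters only. A match does not show that a factor binds there, and the arrays did not measure binding.

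Base composition did not divide the family by signal. The windows of GPX1 (69.7% G+C, 23 CpG dinucleotides) and GPX4 (70.7% to 79% G+C, 39 to 43 CpG) were above the medians of all windows (58.7% and 14). That of GPX8, also above the reference on all arrays, was poor in both (43% and 4). Among genes below the reference, GPX7 (69% and 30) and GPX3 (65% and 21) were rich, and GPX2 (53.7% and 4) was poor, as were the windows of GPX5 (42.7% to 54.3% and 0 to 6).

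GPX1, the abundant cytosolic enzyme for hydrogen peroxide, read 13.09 and 13.30 in scramble cells, against 13.17 and 13.11 in sh-ACTL6A cells (200736_s_at). Both sh-ACTL6A values fell between the scramble values. The difference was -0.05 (SE 0.12, n = 2 per group, 95% confidence interval -0.33 to 0.23, limma adjusted p = 0.979), or 0.964-fold with bounds of 0.794 and 1.17. GPX4 read 13.03 and 12.99 in scramble cells, against 12.89 and 13.16 in sh-ACTL6A cells (201106_at). The sh-ACTL6A arrays lay on either side of the scramble arrays. The difference was 0.01 (SE 0.13, n = 2 per group, interval -0.29 to 0.31, limma adjusted p = 0.998), or 1.01-fold with bounds of 0.819 and 1.24. For neither gene did the difference exceed the spread between arrays. Larger differences in signal lie outside these intervals, which rest on 2 arrays per group and do not bound the change of the transcript itself.

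GPX8 and GPX7 are enzymes of the endoplasmic reticulum (ER), where they use the peroxide made during oxidative protein folding. GPX8 read 11.23 and 11.19 in scramble cells, against 11.08 and 11.48 in sh-ACTL6A cells with 1 probe set (227628_at), a difference of 0.07 (SE 0.16, interval -0.30 to 0.45). The other probe set of GPX8 (228141_at) read 9.01 and 9.04, then 9.08 and 8.79, a difference of -0.09 (SE 0.17, interval -0.51 to 0.33). Both probe sets had overlapping groups, their mean signals lay 2.27 apart, and their differences had opposite signs. On both, the scramble arrays were close together and sh-ACTL6A replicate 2 was farthest from them, in opposite directions. GPX7 (213170_at) read 4.15 and 4.92 in scramble cells, against 5.55 and 3.88 in sh-ACTL6A cells. The scramble values lay within the range of the sh-ACTL6A values, and the difference was 0.18 (SE 0.79, interval -1.71 to 2.08).

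GPX2, the gastrointestinal member, was the family gene with the smallest unadjusted p. Its probe set 202831_at read 5.28 and 5.90 in scramble cells, against 4.67 and 3.86 in sh-ACTL6A cells. Both sh-ACTL6A arrays were below both scramble arrays. The difference was -1.33 (SE 0.63, n = 2 per group, interval -2.83 to 0.17, limma unadjusted p = 0.0744, adjusted p = 0.960), which did not pass the test. The other probe set of GPX2 (239595_at) read 3.94 and 1.5, then 2.49 and 4.17, with overlapping groups and a difference of 0.61 (SE 1.15). The probe sets of GPX2 thus differed in sign, and both were below the reference on every array, so no change of GPX2 was detectable at this precision.

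GPX5, known as an epididymal secreted member, gave a similar picture. Its probe set 214648_at read 3.06 and 5.21 in scramble cells, against 2.35 and 2.14 in sh-ACTL6A cells, without overlap. The difference was -1.89 (SE 1.0, interval -4.28 to 0.50, limma unadjusted p = 0.103, adjusted p = 0.960). It moved from -0.82 without scramble replicate 2 to -2.96 without scramble replicate 1, as those arrays were 2.15 apart. The other probe set (208028_s_at) read 3.29 and 2.12, then 2.08 and 4.37, with overlap and a difference of 0.52 (SE 1.08).

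GPX3, the secreted plasma enzyme, read 5.44 and 5.59 in scramble cells, against 6.43 and 5.16 in sh-ACTL6A cells (214091_s_at), a difference of 0.28 (SE 0.56, interval -1.07 to 1.62). The other probe set (201348_at) read 5.77 and 2.22, then 4.86 and 5.26, a difference of 1.06 (SE 1.17, interval -1.72 to 3.85). Both had overlapping groups. On the second, scramble replicate 2 lay 3.55 below replicate 1, and without scramble replicate 2 the difference became -0.71.

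**Figure D2:**
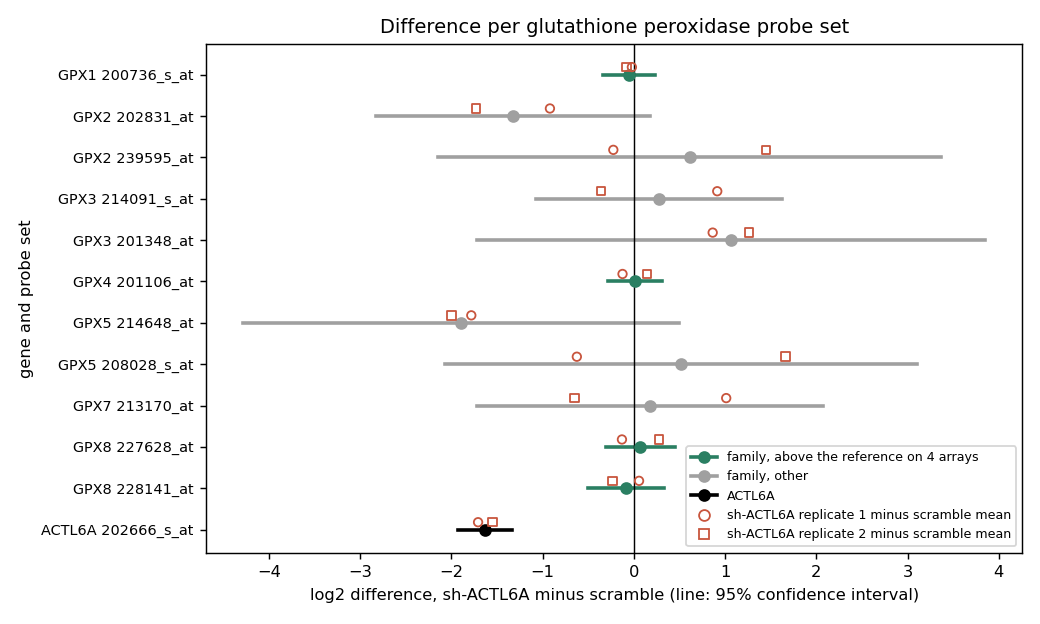
Difference in log2 signal, sh-ACTL6A minus scramble (horizontal axis), for the 11 family probe sets and ACTL6A (vertical axis); filled points are the fitted differences, lines their 95% confidence intervals, and open symbols the sh-ACTL6A arrays singly, relative to the mean of scramble. Every family interval includes 0, with those of GPX1, GPX4 and GPX8 narrow (SE 0.12 to 0.17) and the others wide (SE 0.56 to 1.17), while ACTL6A lies at -1.63.

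Across the family, 0 of 11 probe sets passed the adjusted threshold, beside 0% of all probe sets. None had an unadjusted p under 0.05, beside 5.01% of all probe sets. The groups did not overlap for 2 of 11 (18.2%), those of GPX2 and GPX5, beside 33.8% of all probe sets. Both were lower in sh-ACTL6A, a direction found in 17.1% of all probe sets. Of the 11 differences 7 were above 0 and 4 below, with a median of 0.07 beside -0.0044 over all probe sets.

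Precision followed signal. The 4 probe sets above the reference ranged over 0.22 to 0.40 across the 4 arrays, and the bounds of their fold changes together ran from 0.705 to 1.36. The other 7 ranged over 1.27 to 3.55. In the whole table, scramble arrays differed by a median of 0.857 for probe sets below the median signal and by 0.0782 for those in the top 5%. The 3′ minus 5′ log2 signal of the ACTB control probe sets, which is larger where RNA is less intact, was 1.63 and 0.78 in scramble, then 1.21 and 0.78 in sh-ACTL6A. It was higher on both arrays numbered 1 and did not separate the groups, and its part in the values above was not tested.

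**Figure D3:**
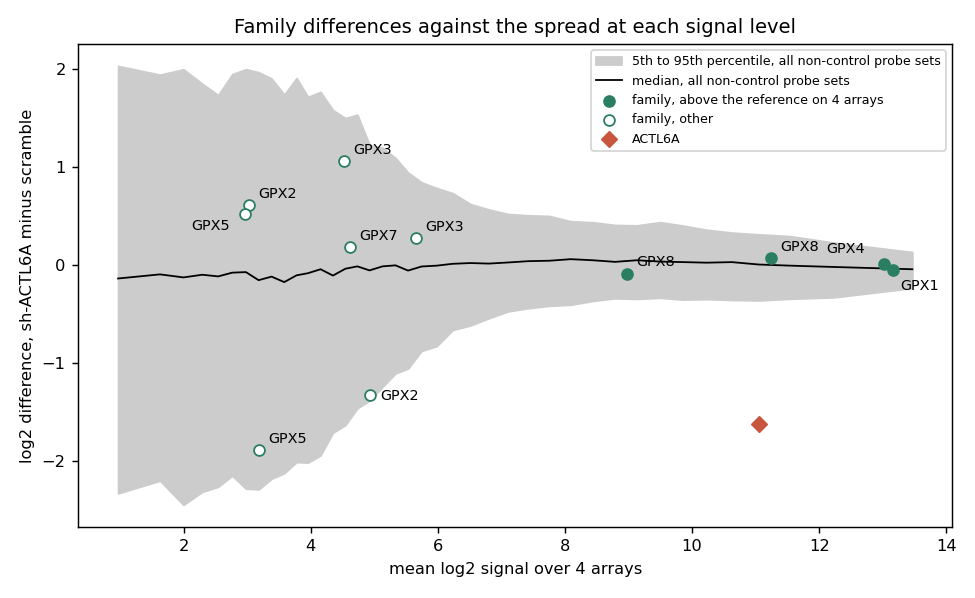
Log2 difference, sh-ACTL6A minus scramble (vertical axis), against mean log2 signal over 4 arrays (horizontal axis); the grey band runs from the 5th to the 95th percentile over the whole table at each signal, the line is their median, circles are family probe sets (filled if above the reference on 4 arrays), and the diamond is ACTL6A. The band narrows with rising signal, all 11 family points lie within or at the edge of it, and ACTL6A lies well below it.

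The genes around the peroxidase reaction were taken from 6 lists, 154 probe sets of 69 genes. None passed the adjusted threshold, 3 were higher and 2 lower at an unadjusted p under 0.05 (3.25%, beside 5.01% of all probe sets), and the smallest adjusted p was 0.96. Their median difference was -0.02. The genes named below had the smallest unadjusted p of each list among probe sets at or above the median signal, and none passed the adjusted test. Where a gene had further probe sets, some went the other way.

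For the supply and recycling of GSH, 22 probe sets of 11 genes had a median difference of -0.07, with 0 at an unadjusted p under 0.05. CHAC1, which degrades GSH, had -0.62 (SE 0.27), GLRX, a glutaredoxin, had -0.47 (SE 0.24), and GLRX2, its mitochondrial relative, had -0.36 (SE 0.22). For the use of selenium, which GPX1 to GPX4 need, 26 probe sets of 10 genes had a median of -0.03, with 1 higher and 2 lower at the unadjusted threshold. The 2 lower ones were both of LRP8, a receptor for selenoprotein P, with -0.36 (SE 0.14) and -0.33 (SE 0.14), and its remaining probe set had -0.22 (SE 0.23). The higher one was a dim probe set of SEPSECS, the enzyme that makes selenocysteine on its tRNA, with 1.76 (SE 0.70). It was chosen for naming after its values were seen. The other probe sets of SEPSECS, all brighter, had 0.10 (SE 0.19), -0.02 (SE 0.18), 0.09 (SE 0.25) and -0.40 (SE 0.31). TRNAU1AP, a partner of the selenocysteine tRNA, had -0.96 (SE 0.44), with -0.43 (SE 0.21), -0.20 (SE 0.16) and 0.43 (SE 0.55) on its other probe sets. SEPHS1 had 0.35 (SE 0.19), with 0.29 (SE 0.19) and -0.26 (SE 0.25) on its other probe sets. Among 35 probe sets of 17 other selenoprotein genes the median was -0.04, with 0 at the unadjusted threshold. SELENOT had -0.30 (SE 0.16), SELENOO 0.29 (SE 0.15) and SELENOI -0.19 (SE 0.12). The other probe sets of SELENOI had -0.18 (SE 0.15) and, on a dim one, 0.63 (SE 0.99).

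Other peroxide-removing enzymes gave 22 probe sets of 9 genes with a median of -0.02. PRDX3, the mitochondrial peroxiredoxin, had the smallest unadjusted p of these lists. It read 13.13 and 12.89 in scramble cells, against 13.68 and 13.57 in sh-ACTL6A cells (201619_at), higher on both. The difference was 0.62 (SE 0.12, limma unadjusted p = 0.00173, adjusted p = 0.960), and its other probe set had -0.05 (SE 0.22). CAT, catalase, had 0.22 (SE 0.10), with 0.36 (SE 0.20) and, on a dim probe set, -0.44 (SE 0.98). MGST1, a membrane glutathione transferase with peroxidase activity, had -0.18 (SE 0.11). Its other bright probe sets had -0.14 (SE 0.11) and -0.18 (SE 0.13), and its dim ones 0.04 (SE 0.86) and 2.31 (SE 1.10). In the ER folding list, the setting of GPX7 and GPX8, 23 probe sets of 9 genes had a median of 0.05, with PDIA3 at 0.22 (SE 0.13), ERO1B at -0.36 (SE 0.25) and P4HB at 0.90 (SE 0.62) on a probe set with overlapping groups. The other probe sets of P4HB had 0.12 (SE 0.13) and 0.24 (SE 0.59), and that of ERO1B 0.11 (SE 0.22). In the lipid peroxide list, the setting of GPX4, 26 probe sets of 13 genes had a median of -0.05. LPCAT3, which loads polyunsaturated chains into phospholipids, had 0.63 (SE 0.26) on 1 probe set and -0.19 (SE 0.23) on the other. ACSL4, which activates such chains, had 0.29 (SE 0.16), with -0.46 (SE 0.92) and -1.62 (SE 0.98) on its other, dim probe sets. GCH1, of tetrahydrobiopterin synthesis, had 0.18 (SE 0.13).

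**Figure D4:**
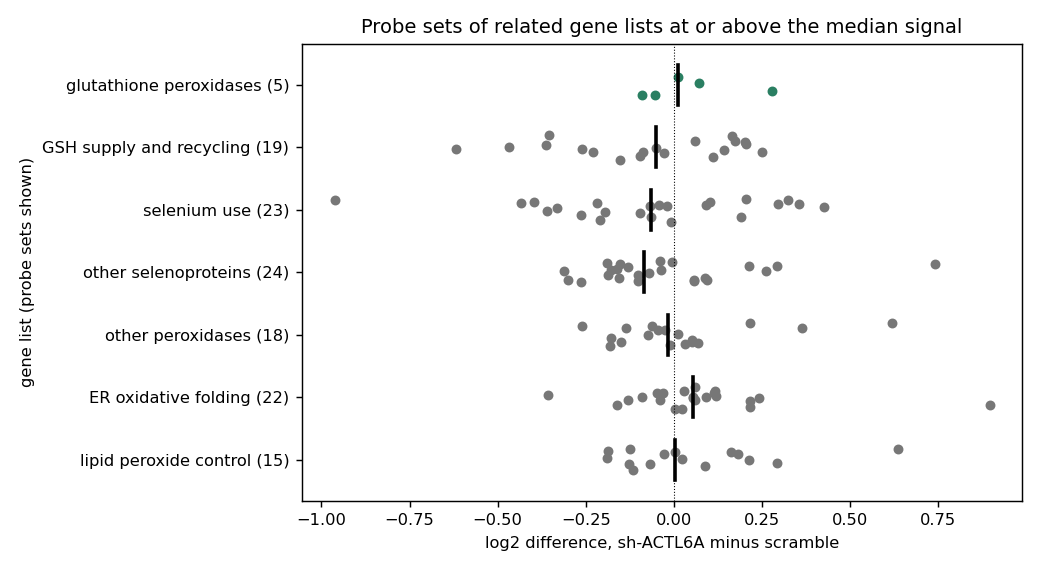
Log2 difference, sh-ACTL6A minus scramble (horizontal axis), for probe sets at or above the median signal in the family and 6 related gene lists (vertical axis, with the number of probe sets shown); points are probe sets, spread vertically at random, and bars are list medians. The medians lie between -0.09 and 0.05, and the 5 family points, which include 1 of GPX3, between -0.09 and 0.28.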

How the data were processed

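RNA of SNU638 cells was labelled with biotin and hybridised to 4 arrays, grouped by the labels into 2 scramble and 2 sh-ACTL6A. Per the submitters' processing notes, the deposited log2 signals (54675 probe sets) were made with MAS5. Its version is not given in the sources available. MAS5 summarises each array alone and scales it. The linear signal, trimmed by 2% at each end, averaged 500.0 on every array. Dim MAS5 signals vary widely between arrays, and the number of arrays limits the precision. Values were used as deposited, without filter or further normalisation, and 62 control probe sets were left out.

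Gene symbols came from the platform's annotation: 41091 probe sets had 1 symbol, 1801 several and 11721 none. Of the first, 41037 had gene identifiers in a current gene table. Differences were fitted with limma 3.58.1 in R 4.3.3 (lmFit, eBayes with an intensity trend, 6.63 moderated degrees of freedom), 2-sided, with Benjamini-Hochberg adjustment over 54613 probe sets. The fit was tested on simulated data of independent normal values. Changes were added there only at or above the median signal, so the test does not cover changes in dimmer probe sets or dependence between arrays. Besides ACTL6A and the family, up to 3 genes per related list were named by the smallest unadjusted p at or above the median signal. Promoter windows came from RefSeq, and every motif tried is given. The members, gene lists, tests and alternatives were chosen with earlier results of these data known.

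Alternatives were quantile normalisation, median centring, filters at the 50th and 75th percentile of mean signal, an offset of 4.34 on the linear signal, no intensity trend, a block for the replicate number, omission of each array, the methods' t-test, the brightest probe set or the mean of all probe sets per gene, and the array median as the level reference.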

Additional observations from a re-analysis of the deposited data

How the results depend on the processing

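No family probe set passed the adjusted threshold under any alternative run. Quantile normalisation, median centring, both filters, the offset, the fit without trend and the methods' t-test kept the direction of every family probe set they tested, as well as the counts called. The filters at the 50th and 75th percentile tested 5 and 4 of the 11 family probe sets, and over those 4 the family median was -0.0208 in place of 0.07. With the replicate number as a block, 3 probe sets were called among all, including ACTL6A (-1.63, adjusted p = 0.0116). With the brightest probe set per gene, kept only at or above the median signal, 12286 genes were tested. Of the family these included GPX1, GPX3, GPX4 and GPX8. In that fit 1 gene was called, ACTL6A (-1.63, limma adjusted p = 0.0408). Over the alternatives the adjusted p of ACTL6A ran from 0.0116 to 1. Same-numbered arrays had deviations that correlated at 0.0111 over all probe sets and at 0.1 over those at or above the median signal. With 2 pairs and no shared origin in the labels, the numbers were not taken as pairing, although the ACTB 3′ minus 5′ signal was also higher on both arrays numbered 1. With the mean of all probe sets per gene, GPX8 as a gene was at -0.0093, between its probe sets of opposite sign, and was also the median over the 7 family genes.

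Leaving out each array, 0 probe sets were called, ACTL6A ran from -1.71 to -1.55 and the family median from -0.12 to 0.03. GPX2 (202831_at, -1.73 to -0.92) and GPX5 (214648_at, -2.96 to -0.82) kept their direction. The other 9 probe sets changed sign: GPX1 (-0.16 to 0.0559), GPX2 239595_at (-0.61 to 1.83), GPX3 214091_s_at (-0.36 to 0.91) and 201348_at (-0.71 to 2.84), GPX4 (-0.12 to 0.15), GPX5 208028_s_at (-0.63 to 1.66), GPX7 (-0.65 to 1.01), GPX8 227628_at (-0.13 to 0.27) and 228141_at (-0.24 to 0.0566). In limma, an unadjusted p under 0.05 was found for GPX2 202831_at without the trend (0.049, adjusted p = 0.844), beside 5.91% of all probe sets. Without scramble replicate 1 it was found for GPX3 201348_at (0.0212) and GPX5 214648_at (0.0291), beside 4.15% of all. Those values rest on scramble replicate 2 alone, assumed to vary like the sh-ACTL6A arrays, and it was 3.55 and 2.15 from replicate 1. The causes were not tested.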
